A study of Mus musculus with 6 samples.

Results

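Cholesterol and long-chain fatty acids are built from acetyl-CoA, and 31 genes of these 2 routes were followed in RNA-seq libraries of mouse embryonic fibroblasts. The members were taken by name, as known genes of these routes: 8 genes of the mevalonate arm, 10 of the squalene and sterol arm, 4 regulators and transport genes, and 9 of the fatty acid arm. All 31 stood among the 25793 genes of the deposited tables. Of them 30 reached 1 CPM, a count scaled to a common library size, in any library and were compared, among 14810 genes that did so. The member left out was Hmgcs1, the HMG-CoA synthase of the mevalonate arm, listed at 0 counts in every library. The annotation used for counting is not given, so these 0 counts are not read as absence of its RNA. The kept member closest to the limit was Tm7sf2, a sterol reductase, whose highest level was 7.33 CPM.

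In animal cells both routes are controlled by SREBP transcription factors, encoded by Srebf1 and Srebf2. When membrane sterol is low, the escort protein Scap carries SREBP from the endoplasmic reticulum to the Golgi, where the proteases encoded by Mbtps1 and Mbtps2 release the part that enters the nucleus. Insig proteins hold Scap back when sterol is plentiful. Srebf1 products act mainly on fatty acid genes and Srebf2 products mainly on cholesterol genes, and fibroblasts make their own sterol by this route.

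The cells were primary fibroblasts from E13.5 embryos, from matings of mice heterozygous for Sptbn1 and for Smad3, grown with 10% fetal bovine serum in DMEM/F12. Sptbn1 encodes β2-spectrin, a membrane scaffold protein that binds Smad3, and Smad3 is a signal transducer of TGF-β. The libraries were labelled Sptbn1+/-, Sptbn1-/-, Smad3+/-, Smad3-/-, Sptbn1+/-;Smad3+/- (the double heterozygote) and wild type (WT), each from 1 µg of total RNA. All 6 libraries share the cell type and culture, and each genotype has 1 library. The labels do not state the strain, the deleted part of each gene or the number of embryos behind a library. Since each genotype was sequenced once, differences have no replicate check, no test between genotypes was made and no p-value is given.

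Counts on genes came to between 6856680 and 31125055 per library. The libraries labelled Smad3-/- and double heterozygote had 80.1% and 81.2% of their unique reads on genes, against 40.9% to 43.3% in the other 4, and so stand apart in make-up. Reads called ambiguous between genes made up 0.0251% of the records in the library labelled Smad3-/- and 0.827% in the double heterozygote, against 0.363% to 0.413% in the other 4. Sptbn1, listed under its older symbol Spnb2, was at 1071 CPM in the library labelled Sptbn1+/-, 771 in Sptbn1-/-, 1556 in Smad3+/-, 1022 in Smad3-/-, 695 in the double heterozygote and 1419 in WT. Smad3 was at 57.7 CPM in the library labelled Sptbn1+/-, 57.2 in Sptbn1-/-, 79.5 in Smad3+/-, 106 in Smad3-/-, 203 in the double heterozygote and 53.3 in WT. Counts outside a deleted part, which is not stated, would check nothing. Smad3 counts were above WT in the 3 libraries labelled as Smad3 mutants, against the direction of their labels. Sptbn1 was not at its lowest in the library labelled Sptbn1-/-, at 771 CPM against 695 in the double heterozygote. Neither gene thus checks the labels, so each library is called by its label. Every direction drawn from one is that of the library so labelled. Xist, the RNA that coats the silenced X, reached 2747 CPM in the library labelled Smad3+/- and between 0.0637 and 16.3 CPM in the other 5, so this library also differs from WT in sex. The summed level of 9 fibroblast markers was between 16847 and 47378 CPM, so RNA of these genes was present in every library. The sum was lowest in the library labelled Smad3-/-, where 7 of the 9 markers and 25.2% of all genes compared were lower than in WT. The sum does not show a like make-up of cells.

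A member was called higher or lower when the whole exact 95% interval of its ratio of scaled counts lay beyond 1.5-fold. The intervals cover counting error only, since the reads carry no molecular identifiers and can be copies of 1 molecule, and 1 library gives no biological spread. In the library labelled Smad3-/-, 16 of 30 members (53.3%) were higher than in WT and 1 (3.33%) was lower, where 24.2% of the 14810 genes were higher and 25.2% lower. The median log2 ratio of the members was 0.82, against 0.05 over all genes compared. In the double heterozygote 2 members (6.67%) were higher than in WT and 8 (26.7%) lower, where 21.6% of all genes were higher and 19.1% lower. With 30 members the share of lower calls was near that of all genes, and 15 of the 30 ratios were above 1. Here the median of the members was 0.03 on the log2 scale, against 0.06 over all genes, and its sign turned to -0.06 with DESeq2 size factors in place of edgeR's scaling and to -0.02 with no filter on low counts.

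The library labelled Smad3+/- had 2 members higher than in WT and none lower, where 1.64% of all genes were higher and 4.46% lower. Its median log2 ratio of the members was 0.46, against 0.01 over all genes, and 29 of 30 ratios were above 1. No member was called in the library labelled Sptbn1+/-, where 0.635% of all genes were higher than in WT and 1.20% lower, and the median of the members was 0.04. None was called in the library labelled Sptbn1-/- either, where the background was 0.648% higher and 0.412% lower, and the median was 0.06. All 5 of these comparisons share the WT library. In bulk RNA fewer cells of a type and less RNA per cell cannot be told apart, which holds for every ratio given here.

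**Figure D1:**
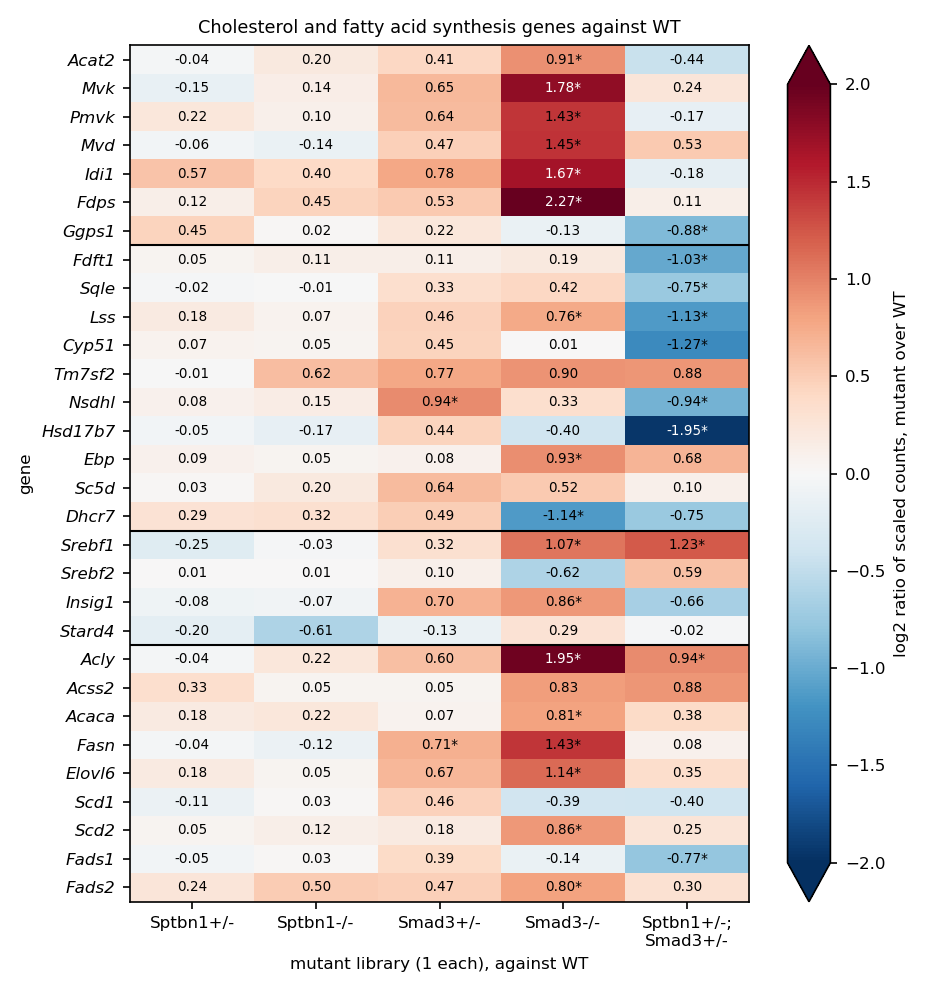
Log2 ratios of the 30 compared members to the WT library in the 5 mutant libraries, in rows grouped by role; colour gives the log2 ratio and an asterisk a member called beyond 1.5-fold. The column labelled Smad3-/- holds 16 higher calls and 1 lower, where 24.2% of all genes were higher and 25.2% lower. That of the double heterozygote holds 2 higher and 8 lower, where 21.6% of all genes were higher and 19.1% lower.

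**Figure D2:**
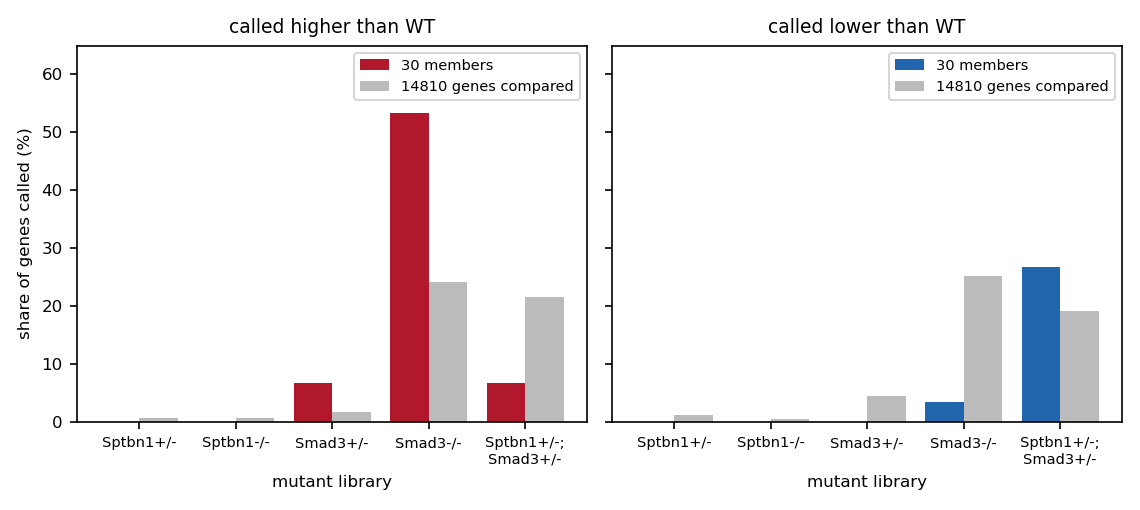
Percent of the 30 members and of all 14810 genes called higher or lower than WT, in each mutant library. The members' bar is 53.3% against 24.2% for higher calls in the library labelled Smad3-/-. For lower calls in the double heterozygote it is 26.7%, near the 19.1% of all genes.

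The summed level of the 30 members was 3447 CPM in the library labelled Sptbn1+/-, 3557 in Sptbn1-/-, 4469 in Smad3+/-, 5337 in Smad3-/-, 3238 in the double heterozygote and 3404 in WT. Of the 30 members, 19 were at their highest in the library labelled Smad3-/-, 7 in Smad3+/-, 3 in the double heterozygote and 1 in Sptbn1+/-. The lowest level lay in the double heterozygote for 13 members and in WT for 8. Over WT and the 2 libraries labelled Sptbn1+/- and Sptbn1-/-, the highest level of a member was 1.14 times its lowest at the median, with a range of 1.01 to 1.56. With the library labelled Smad3+/- added, the median was 1.46 and the highest value 1.91. Its share of reads on genes was like that of WT, but it differs from WT in sex. These libraries carry different genotypes, so the values are no measure of spread between replicates.

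Promoter sequences are shown for 4 members on which the results turn: Mvk and Acly, high in the library labelled Smad3-/-, Hsd17b7, low in the double heterozygote, and Insig1, which differed between those libraries. They are RefSeq windows of 300 bases around the annotated start, on the strand of the gene, in build GRCm38.p6, which is not the mm9 build of the counts. Capitals mark CCAAT, the core letters of the box bound by NF-Y, a factor known to work beside SREBP, and CACNCCAC, a core of the sterol regulatory element that SREBP binds, both read on either strand. The Mvk window, chr5:114444019-114444318 on the plus strand, holds 5 CCAAT. The Acly window, chr11:100527951-100528250 on the minus strand, holds 1. The Insig1 window, chr5:28071162-28071461 on the plus strand, holds 1 CCAAT and 1 CACNCCAC. The Hsd17b7 window, chr1:169969156-169969455 on the minus strand, holds 3 CCAAT.
Mvk: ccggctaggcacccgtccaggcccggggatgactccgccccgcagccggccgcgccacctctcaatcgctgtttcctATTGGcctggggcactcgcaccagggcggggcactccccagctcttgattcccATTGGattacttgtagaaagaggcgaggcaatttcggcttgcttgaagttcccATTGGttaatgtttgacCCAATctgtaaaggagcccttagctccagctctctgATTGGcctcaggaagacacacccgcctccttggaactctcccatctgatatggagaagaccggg
Acly: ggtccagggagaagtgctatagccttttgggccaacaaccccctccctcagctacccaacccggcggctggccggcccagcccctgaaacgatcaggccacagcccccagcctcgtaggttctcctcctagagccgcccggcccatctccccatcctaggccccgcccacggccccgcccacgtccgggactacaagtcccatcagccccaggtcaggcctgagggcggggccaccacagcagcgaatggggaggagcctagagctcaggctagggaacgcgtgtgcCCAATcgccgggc
Insig1: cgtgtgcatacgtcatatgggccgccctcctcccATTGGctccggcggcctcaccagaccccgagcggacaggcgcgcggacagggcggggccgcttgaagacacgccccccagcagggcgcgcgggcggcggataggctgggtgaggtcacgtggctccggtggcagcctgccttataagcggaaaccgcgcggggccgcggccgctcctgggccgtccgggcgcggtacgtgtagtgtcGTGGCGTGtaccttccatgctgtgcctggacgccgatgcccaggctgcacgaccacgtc
Hsd17b7: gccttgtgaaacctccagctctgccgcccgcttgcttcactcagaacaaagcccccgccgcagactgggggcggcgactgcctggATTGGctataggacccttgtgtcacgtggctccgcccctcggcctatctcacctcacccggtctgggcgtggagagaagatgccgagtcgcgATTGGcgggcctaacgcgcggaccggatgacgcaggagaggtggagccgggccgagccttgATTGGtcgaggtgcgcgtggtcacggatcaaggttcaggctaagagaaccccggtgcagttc

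RefSeq windows were matched for 24 of the 31 members, and Fdps, Fdft1, Sqle, Stard4, Scd1, Scd2 and Fads1 had none. CCAAT stood in the windows of 20 of those 24 (83.3%), where 41.1% of 27025 genes with a window hold it. CACNCCAC stood in 3 of 24 (12.5%), those of Acat2, Hmgcs1 and Insig1, where 7.12% of all genes hold it. The longer TCACNCCAC, which contains CACNCCAC, stood in that of Hmgcs1 alone (4.17%), where 1.44% of all genes hold it. A match is a run of letters in this window and shows no binding.

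The mevalonate arm turns acetyl-CoA into farnesyl and geranylgeranyl diphosphate. In the library labelled Smad3-/- 6 of its 7 compared members were higher than in WT and none was lower, with a median log2 ratio of 1.45, where 24.2% of all genes were higher. In the double heterozygote 1 of 7 was lower and none higher, with a median of -0.17, and that share was below the 19.1% of all genes called lower. The summed level of the arm was 179 CPM in the library labelled Sptbn1+/-, 178 in Sptbn1-/-, 223 in Smad3+/-, 360.3 in Smad3-/-, 141 in the double heterozygote and 163 in WT.

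Fdps, the synthase that makes farnesyl diphosphate, was at 8.98 CPM in the library labelled Sptbn1+/-, 11.4 in Sptbn1-/-, 12.02 in Smad3+/-, 40.3 in Smad3-/-, 9.01 in the double heterozygote and 8.32 in WT. The library labelled Smad3-/- lay above the other 5, which were close to each other, and its ratio to WT was 4.85 (95% interval 3.92 to 6.06), the largest among the members. This value is uncertain. In a GRCm38 annotation 77.4% of the exon bases of Fdps overlap Gm43738, a protein-coding gene on the same strand. Ambiguous reads made up 0.0251% of the records in the library labelled Smad3-/- and 0.363% to 0.827% in the other 5, and their part in the Fdps ratio was not tested. Mvk, the kinase that phosphorylates mevalonate, was at 16.3 CPM in the library labelled Sptbn1+/-, 20.0 in Sptbn1-/-, 28.7 in Smad3+/-, 62.6 in Smad3-/-, 21.6 in the double heterozygote and 18.2 in WT. Its ratio in the library labelled Smad3-/- was 3.43 (2.97 to 3.99), and in Smad3+/- 1.57 (1.31 to 1.89), which was not called.

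Idi1, the isopentenyl diphosphate isomerase, was at 8.25 CPM in the library labelled Sptbn1+/-, 7.32 in Sptbn1-/-, 9.59 in Smad3+/-, 17.8 in Smad3-/-, 4.94 in the double heterozygote and 5.57 in WT. The library labelled Smad3-/- was highest, with a ratio to WT of 3.20 (2.45 to 4.24), and the double heterozygote lowest. WT rested on 63 counts here, and the ratios of 1.72 (1.24 to 2.40) in the library labelled Smad3+/- and 1.48 (1.01 to 2.15) in Sptbn1+/- were not called. Pmvk and Mvd, the kinase and the decarboxylase that follow Mvk, were also called in the library labelled Smad3-/-. Pmvk was at 45.3 CPM there against 16.8 in WT, a ratio of 2.69 (2.30 to 3.16). Mvd was at 52.8 CPM against 19.3 in WT, a ratio of 2.74 (2.37 to 3.18).

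Acat2, the thiolase that joins 2 acetyl-CoA, had 106 CPM in the library labelled Smad3-/- and 56.4 in WT, a ratio of 1.88 (1.72 to 2.06). Ggps1, which makes the geranylgeranyl diphosphate attached to proteins, did not share this pattern. Its level was 52.7 CPM in the library labelled Sptbn1+/-, 39.2 in Sptbn1-/-, 45.0 in Smad3+/-, 35.3 in Smad3-/-, 21.1 in the double heterozygote and 38.7 in WT. Only the double heterozygote was called among the 5 mutants, 1.83-fold lower than WT (1.62 to 2.07), and in the library labelled Smad3-/- the ratio was 0.913 (0.812 to 1.03). Among these genes Fdps, Acat2 and Idi1 are uncertain, since near-identical or overlapping transcripts share their sequence. In a GRCm38 annotation 26.2% of the 50-base words of Fdps transcripts recur in transcripts of other genes, as do 39.1% of those of Acat2 and 25.3% of those of Idi1.

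**Figure D3:**
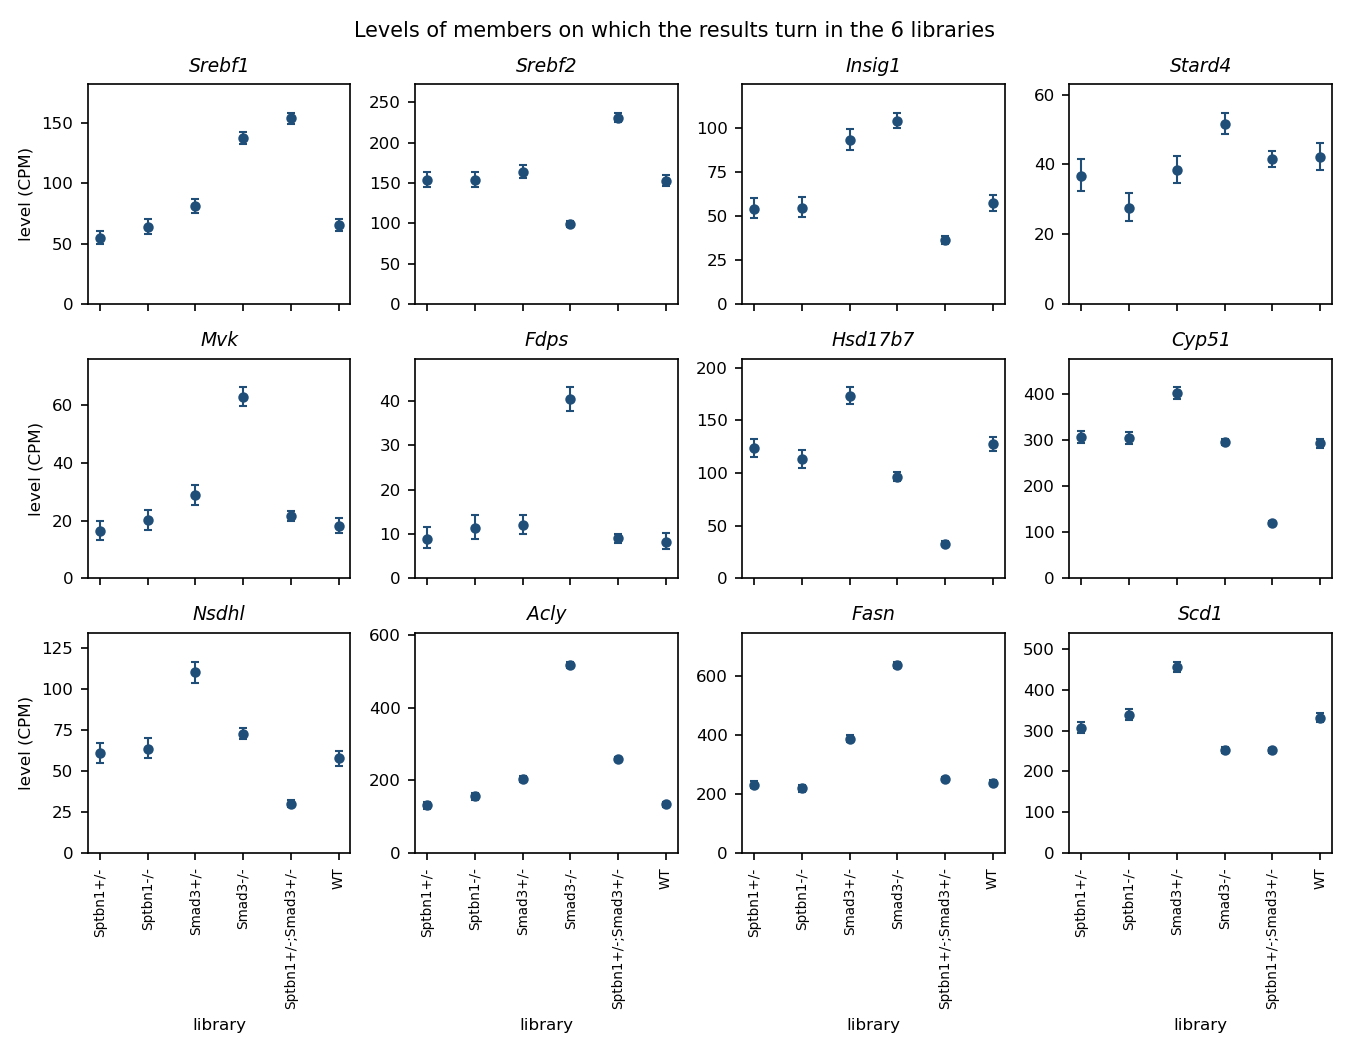
Scaled CPM of 12 members in the 5 mutant libraries and WT, 1 point per library; bars are exact Poisson 95% intervals of the count. Mvk, Fdps, Acly and Fasn are highest in the library labelled Smad3-/-, and Hsd17b7, Cyp51 and Nsdhl are lowest in the double heterozygote.

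The squalene and sterol arm joins farnesyl diphosphate into squalene, closes the rings of lanosterol and trims it to cholesterol. Of its 10 members, 2 were higher than WT and 1 lower in the library labelled Smad3-/-, both below the shares of all genes (24.2% higher, 25.2% lower), with a median log2 ratio of 0.38. In the double heterozygote 6 of 10 were lower and none higher, with a median of -0.85, where 19.1% of all genes were lower. The arm summed to 939 CPM in the library labelled Sptbn1+/-, 936 in Sptbn1-/-, 1238 in Smad3+/-, 1027 in Smad3-/-, 467 in the double heterozygote and 903 in WT.

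Hsd17b7, the keto-reductase that acts during removal of the methyl groups of the ring, was at 123 CPM in the library labelled Sptbn1+/-, 113 in Sptbn1-/-, 173 in Smad3+/-, 96.5 in Smad3-/-, 33.1 in the double heterozygote and 128 in WT. The double heterozygote lay below the other 5 and was 3.86-fold lower than WT (3.57 to 4.19). Cyp51, the demethylase of lanosterol, was at 307 CPM in the library labelled Sptbn1+/-, 304 in Sptbn1-/-, 401 in Smad3+/-, 295 in Smad3-/-, 121 in the double heterozygote and 293 in WT. Only the double heterozygote was called, 2.42-fold lower than WT (2.31 to 2.53), and the ratio in the library labelled Smad3-/- was 1.01 (0.967 to 1.05).

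Nsdhl, the X-linked dehydrogenase of the same demethylation steps, was at 60.7 CPM in the library labelled Sptbn1+/-, 63.7 in Sptbn1-/-, 110.2 in Smad3+/-, 72.7 in Smad3-/-, 29.9 in the double heterozygote and 57.6 in WT. It was 1.91-fold higher than WT in the library labelled Smad3+/- (1.74 to 2.11) and 1.92-fold lower in the double heterozygote (1.74 to 2.13). The library labelled Smad3+/- is the one with Xist at 2747 CPM, against 16.3 in WT, and the part of sex in this ratio was not tested. Ebp, the sterol isomerase and the other X-linked member, was at 17.5 CPM in that library and 16.6 in WT, a ratio of 1.05 (0.855 to 1.30).

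Lss, the cyclase that makes lanosterol, was called in opposite directions in 2 libraries. Its level was 93.6 CPM in the library labelled Sptbn1+/-, 86.5 in Sptbn1-/-, 114 in Smad3+/-, 140.1 in Smad3-/-, 37.7 in the double heterozygote and 82.7 in WT. The ratio to WT was 1.69 (1.57 to 1.82) in the library labelled Smad3-/-, and the double heterozygote was 2.19-fold lower (2.01 to 2.39). Fdft1, the squalene synthase, was at 35.1 CPM in the double heterozygote and 71.8 in WT, 2.05-fold lower (1.87 to 2.24). Sqle, the squalene epoxidase, was at 88.4 CPM in the double heterozygote and 148 in WT, 1.68-fold lower (1.58 to 1.78). Neither was called in any other library against WT. Fdft1 is uncertain because 20.9% of its exon bases overlap Ctsb on the opposite strand, and no source used here states whether the counting used strand.

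Ebp had 31.8 CPM in the library labelled Smad3-/- and 16.6 in WT, a ratio of 1.91 (1.63 to 2.26). Dhcr7, the reductase that closes 1 branch of the route by making cholesterol, was at 54.5 CPM in the library labelled Sptbn1+/-, 55.6 in Sptbn1-/-, 62.8 in Smad3+/-, 20.3 in Smad3-/-, 26.6 in the double heterozygote and 44.6 in WT. It was the single member called lower in the library labelled Smad3-/-, 2.20-fold below WT (1.93 to 2.50). Its ratio of 0.596 (0.533 to 0.667) in the double heterozygote reached 1.5-fold at the end of its interval and was not called.

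Sc5d, a sterol desaturase, was called in none of the 5 libraries, with levels between 56.5 and 87.9 CPM. Tm7sf2 was at 3.83 CPM in the library labelled Sptbn1+/-, 5.98 in Sptbn1-/-, 6.69 in Smad3+/-, 7.33 in Smad3-/-, 7.23 in the double heterozygote and 3.89 in WT. Its WT level rested on 44 counts, and its largest ratio, 1.88 (1.34 to 2.69) in the library labelled Smad3-/-, was not called.

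**Figure D4:**
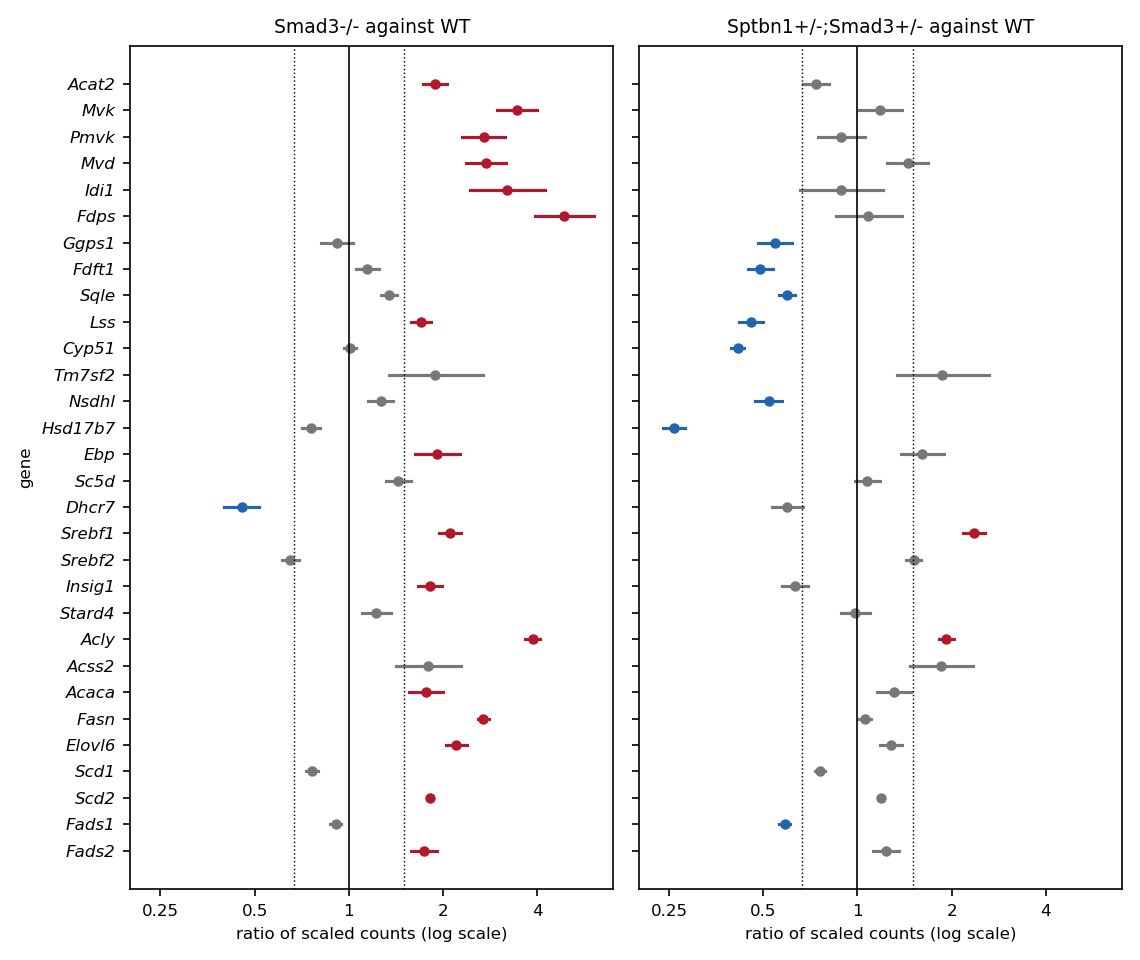
Ratio to WT of the 30 members in the libraries labelled Smad3-/- and double heterozygote, on a log axis with exact 95% intervals of counting error; dotted lines mark 1.5-fold either way. Red points are members called higher, blue lower and grey not called. In the library labelled Smad3-/- 16 were higher and 1 lower, where 24.2% of all genes were higher and 25.2% lower. In the double heterozygote 2 were higher and 8 lower, where 21.6% of all genes were higher and 19.1% lower.

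Among the regulators, Srebf1 was at 54.9 CPM in the library labelled Sptbn1+/-, 64.0 in Sptbn1-/-, 81.3 in Smad3+/-, 138 in Smad3-/-, 154 in the double heterozygote and 65.3 in WT. The 2 libraries that stand apart in make-up lay above the other 4, with ratios to WT of 2.11 (1.94 to 2.29) in the library labelled Smad3-/- and 2.35 (2.18 to 2.55) in the double heterozygote. Srebf2 was at 154 CPM in the library labelled Sptbn1+/-, 154 in Sptbn1-/-, 164 in Smad3+/-, 99.4 in Smad3-/-, 231 in the double heterozygote and 153 in WT. The library labelled Smad3-/- was lowest, with a ratio to WT of 0.650 (0.610 to 0.692), and the double heterozygote highest, with a ratio of 1.51 (1.43 to 1.59). Neither was called. Of the 4 regulators and transport genes, 2 were thus higher in the library labelled Smad3-/-, Srebf1 and Insig1, and 1 in the double heterozygote, with none lower, where 24.2% and 21.6% of all genes were higher in these libraries.

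Insig1, which retains Scap and is itself a target of SREBP, was at 54.3 CPM in the library labelled Sptbn1+/-, 54.8 in Sptbn1-/-, 93.6 in Smad3+/-, 104 in Smad3-/-, 36.4 in the double heterozygote and 57.6 in WT. It was called in the library labelled Smad3-/-, with a ratio of 1.81 (1.66 to 1.98), while 1.63 (1.47 to 1.80) in Smad3+/- and 0.632 (0.574 to 0.697) in the double heterozygote were not called. Stard4, a sterol carrier of the cytosol, was at 36.8 CPM in the library labelled Sptbn1+/-, 27.6 in Sptbn1-/-, 38.5 in Smad3+/-, 51.6 in Smad3-/-, 41.6 in the double heterozygote and 42.2 in WT. It was called in none of the 5 mutants. Its ratio of 0.655 (0.550 to 0.778) was the lowest of the members in the library labelled Sptbn1-/-.

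The fatty acid arm makes cytosolic acetyl-CoA, builds palmitate from it, and elongates and desaturates the chain. In the library labelled Smad3-/- 6 of 9 members were higher than WT and none lower, with a median log2 ratio of 0.83, where 24.2% of all genes were higher. In the double heterozygote 1 of 9 was higher and 1 lower, with a median of 0.30, both below the shares of all genes (21.6% higher, 19.1% lower). The arm summed to 2028 CPM in the library labelled Sptbn1+/-, 2143 in Sptbn1-/-, 2630.2 in Smad3+/-, 3557 in Smad3-/-, 2167 in the double heterozygote and 2019 in WT.

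Acly, which splits citrate into acetyl-CoA for both routes, was at 130.3 CPM in the library labelled Sptbn1+/-, 156 in Sptbn1-/-, 202 in Smad3+/-, 518 in Smad3-/-, 257 in the double heterozygote and 134 in WT. Its ratio to WT was 3.87 (3.67 to 4.08) in the library labelled Smad3-/- and 1.92 (1.82 to 2.03) in the double heterozygote. With Srebf1 it was 1 of 2 members higher in both, where 24.2% and 21.6% of all genes were higher in these libraries. The share of all genes higher in both was not computed, so this overlap is not a result about the members. Acss2, which makes acetyl-CoA from acetate, was at 10.0 CPM in the library labelled Sptbn1+/-, 8.22 in Sptbn1-/-, 8.24 in Smad3+/-, 14.2 in Smad3-/-, 14.7 in the double heterozygote and 7.96 in WT. It was highest in the same 2 libraries, but no ratio was called, and the largest was 1.85 (1.47 to 2.34) in the double heterozygote.

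Fasn, the fatty acid synthase, was at 231 CPM in the library labelled Sptbn1+/-, 218 in Sptbn1-/-, 387 in Smad3+/-, 639 in Smad3-/-, 250.4 in the double heterozygote and 237 in WT. It was called in the libraries labelled Smad3-/-, at 2.69 (2.58 to 2.80), and Smad3+/-, at 1.63 (1.55 to 1.71). Its ratio of 1.05 (1.01 to 1.10) in the double heterozygote was close to WT. Elovl6, which elongates palmitate, had 155 CPM in the library labelled Smad3-/- and 70.3 in WT, a ratio of 2.20 (2.04 to 2.38). Acaca, the carboxylase that makes malonyl-CoA, had 49.6 CPM in the library labelled Smad3-/- and 28.2 in WT, a ratio of 1.76 (1.55 to 1.997). In a GRCm38 annotation 30.4% of the 50-base words of Acaca transcripts recur in those of other genes, so its value is uncertain.

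The 4 desaturases split between called and not called. Scd2 had 1579 CPM in the library labelled Smad3-/- and 871 in WT, a ratio of 1.81 (1.77 to 1.85). Its paralog Scd1 was at 252 CPM against 331 in WT, a ratio of 0.762 (0.731 to 0.794) that was not called. Scd1 and Scd2 share sequence, with 4.56% of the 50-base words of Scd1 and 3.97% of those of Scd2 found in other genes.

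Fads2, which starts the desaturation of polyunsaturated fatty acids, was at 60.1 CPM in the library labelled Sptbn1+/-, 72.0 in Sptbn1-/-, 70.6 in Smad3+/-, 88.7 in Smad3-/-, 62.9 in the double heterozygote and 51.0 in WT. It was called in the library labelled Smad3-/- at 1.74 (1.58 to 1.91), and WT was the lowest of the 6. Fads1, the desaturase that acts later in that route, was at 169 CPM in the double heterozygote and 289 in WT, 1.71-fold lower (1.64 to 1.79). In the library labelled Smad3-/- its ratio was 0.907 (0.868 to 0.946).

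The intervals were also widened by the spread over the 4 libraries with a like share of reads on genes. These differ in genotype, and that labelled Smad3+/- also in sex. Of the 16 higher calls in the library labelled Smad3-/-, 7 were then kept, those of Acly, Fasn, Fdps, Idi1, Mvd, Mvk and Pmvk. Of the 14810 genes, 1738 were higher and 2653 lower than WT in the library labelled Smad3-/- with these intervals. Of the 10 calls in the double heterozygote only that of Hsd17b7 was kept under the same widening. There 1509 of all genes were higher and 1555 lower, so the members' share did not exceed the background. Neither call in the library labelled Smad3+/- was kept. No call was kept when the spread of all 6 libraries, genotype included, was used.

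Pairs of mutants gave comparisons that do not use WT. Between the 2 libraries that stand apart in make-up, that labelled Smad3-/- had 18 of 30 members (60.0%) higher than the double heterozygote and 1 lower, where 19.8% of all genes were higher and 23.4% lower. The median log2 ratio of the members was 0.85, against 0.00 over all genes. Fdps had 40.3 CPM in the library labelled Smad3-/- and 9.01 in the double heterozygote, a ratio of 4.47 (3.91 to 5.13). That ratio is uncertain because of the overlap with Gm43738 given above. Lss had 140.1 CPM in the library labelled Smad3-/- and 37.7 in the double heterozygote, a ratio of 3.72 (3.48 to 3.98). Srebf2 was the single member lower in the library labelled Smad3-/-, 2.33-fold below the double heterozygote (2.22 to 2.44).

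The double heterozygote had 1 member higher and 13 lower than the library labelled Smad3+/-, where 22.5% of all genes were higher and 19.0% lower. Hsd17b7 was 5.24-fold lower (4.85 to 5.66), Nsdhl 3.68-fold lower (3.37 to 4.02) and Insig1 2.57-fold lower (2.36 to 2.80), while Srebf1 was 1.89-fold higher (1.76 to 2.04). Against the library labelled Sptbn1+/- it had 2 higher and 9 lower, where 21.1% of all genes were higher and 18.3% lower. Ggps1 was 2.50-fold lower (2.19 to 2.85) and Dhcr7 2.05-fold lower (1.81 to 2.32) in that comparison.

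The library labelled Smad3-/- had 9 members higher and 4 lower than that labelled Smad3+/-, where 22.6% of all genes were higher and 22.3% lower. The 4 lower members were Dhcr7, Scd1, Hsd17b7 and Srebf2. Dhcr7 was 3.09-fold lower (2.74 to 3.49) and Scd1 1.81-fold lower (1.74 to 1.88). With DESeq2 size factors the higher calls numbered 5 of 30, where 3081 of the 14810 genes were higher, so the members' share did not exceed the background. No member was called between the libraries labelled Sptbn1-/- and Sptbn1+/-, where the background was 0.925% higher and 0.378% lower. The member ratios ran from 0.743 (0.631 to 0.873) for Ggps1 to 1.56 (0.930 to 2.66) for Tm7sf2.

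Other genes of sterol handling were read as a list of 9. In the library labelled Smad3-/- 3 were higher than WT and 3 lower, where 24.2% of all genes were higher and 25.2% lower. With so few genes these counts lie near the background, and the values below describe single genes. Sc4mol, the methyl sterol oxidase, was at 213 CPM there and 76.2 in WT, a ratio of 2.79 (2.60 to 3.00). Mbtps1 had a ratio of 1.86 (1.74 to 1.98), and Tmem97, a sterol-regulated membrane protein, 4.79 (4.10 to 5.63). Mbtps2 was lower, as were Npc1 and Npc2, which export cholesterol from lysosomes, with Mbtps2 1.73-fold (1.55 to 1.93), Npc1 2.47-fold (2.29 to 2.66) and Npc2 1.97-fold (1.89 to 2.04) below WT.

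In the double heterozygote 2 of these 9 were higher than WT and 1 lower, near or below the 21.6% and 19.1% of all genes. Mbtps1 was at 282 CPM there and 103 in WT, a ratio of 2.75 (2.58 to 2.92). Insig2, the second Insig, had a ratio of 1.64 (1.51 to 1.79), and Soat1, which esterifies cholesterol, was 1.79-fold lower (1.69 to 1.89). None of the 9 was called in the library labelled Smad3+/-.

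A list of 12 other genes of fatty acid and lipid synthesis gave 3 higher and none lower in the library labelled Smad3-/-, a share of higher calls near the 24.2% of all genes. Aacs, which makes acetoacetyl-CoA in the cytosol, was at 159 CPM there, 87.9 in the double heterozygote and 27.7 in WT, with ratios of 5.73 (5.11 to 6.46) and 3.17 (2.82 to 3.58). Gpam and Agpat2, acyltransferases of glycerolipid synthesis, had ratios of 2.13 (1.81 to 2.51) and 2.44 (1.87 to 3.22) in the library labelled Smad3-/-. The double heterozygote had 4 of 12 higher and 2 lower, where 21.6% of all genes were higher and 19.1% lower. Dgat2, which makes triglyceride, was at 25.6 CPM in the double heterozygote and 3.72 in WT, a ratio of 6.90 (5.06 to 9.65). Lpin1, a phosphatidate phosphatase, had a ratio of 2.17 (1.77 to 2.67) and Agpat2 1.97 (1.51 to 2.59), while Elovl5 was 1.62-fold lower (1.53 to 1.71) and Acsl3 1.77-fold lower (1.62 to 1.94).

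LXR receptors sense oxysterols and raise genes of cholesterol efflux. In the library labelled Smad3-/- 4 of 8 genes on this list were lower than WT and none higher, where 25.2% of all genes were lower. The double heterozygote had 3 of 8 higher and 1 lower, where 21.6% of all genes were higher and 19.1% lower. Abca1, the main efflux pump, had 31.8 CPM in the library labelled Smad3-/-, 376 in the double heterozygote and 187 in WT. That is 5.89-fold lower (5.40 to 6.42) in the library labelled Smad3-/- and 2.01-fold higher (1.92 to 2.10) in the double heterozygote. Abcg1 and Abcg4 were lower in the library labelled Smad3-/-, by 3.31-fold (2.72 to 4.04) and 3.56-fold (1.78 to 7.40). Abcg4 was at only 0.622 CPM there and 2.21 in WT.

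Apoe, the apolipoprotein that accepts effluxed cholesterol and is made in quantity by macrophages, was at 89.1 CPM in the library labelled Sptbn1+/-, 110.3 in Sptbn1-/-, 57.0 in Smad3+/-, 9.46 in Smad3-/-, 71.7 in the double heterozygote and 121 in WT. It was called lower in all 3 libraries with a Smad3 label, the only gene of the list called in Smad3+/-. The summed level of 9 macrophage markers was also low in the library labelled Smad3-/-, at 57.1 CPM against 2151 in WT, and their part in the efflux genes was not tested. Nr1h2, which encodes an LXR, was at 82.2 CPM in the double heterozygote and 29.9 in WT, a ratio of 2.75 (2.45 to 3.09). Mylip, a ubiquitin ligase induced by LXR, had a ratio of 1.78 (1.61 to 1.97) there. None of the genes on these 3 lists was called in the libraries labelled Sptbn1+/- and Sptbn1-/-.

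**Figure D5:**
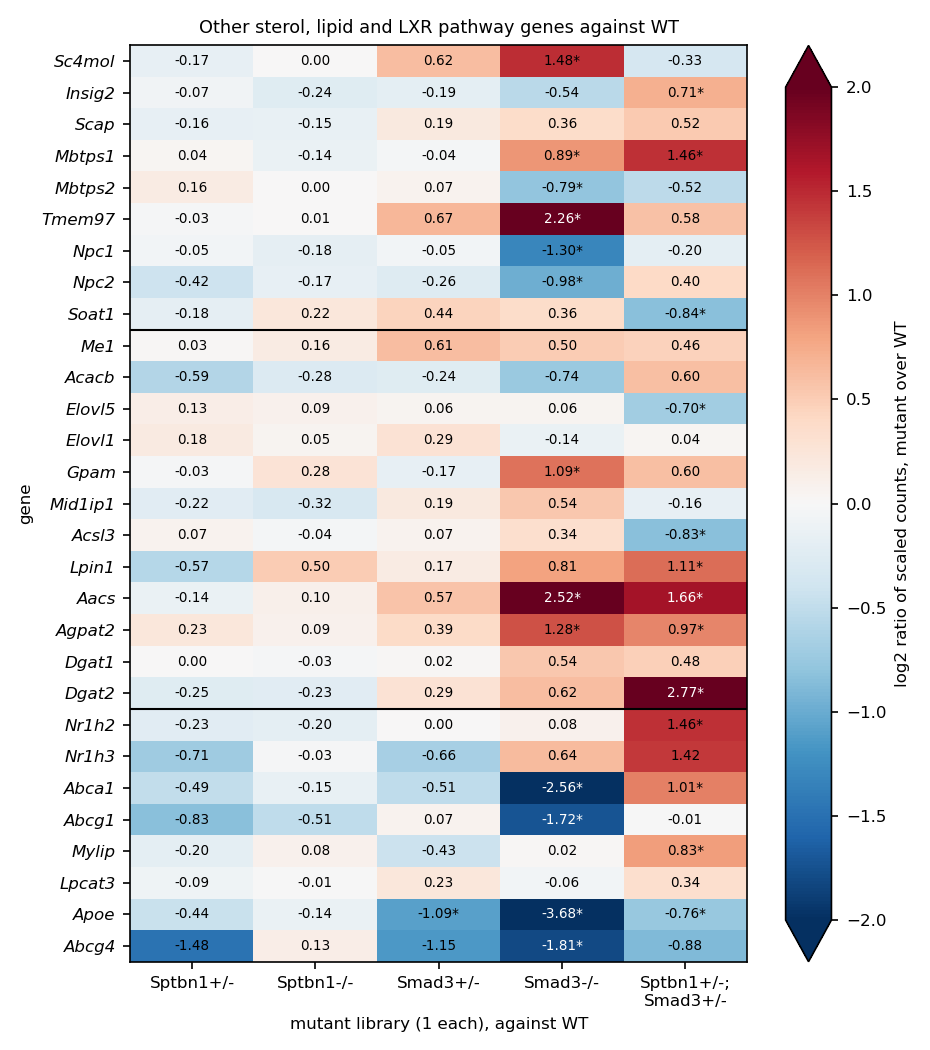
Log2 ratios to WT of the other genes of the 3 lists (sterol and SREBP machinery, fatty acid and lipid synthesis, LXR and efflux) in the 5 mutant libraries; an asterisk marks a gene called beyond 1.5-fold. Abca1 is low in the library labelled Smad3-/- and high in the double heterozygote.

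Markers of other cell types also differed between these libraries. The summed level of 9 macrophage markers was 1392 CPM in the library labelled Sptbn1+/-, 1402 in Sptbn1-/-, 2111 in Smad3+/-, 57.1 in Smad3-/-, 1561 in the double heterozygote and 2151 in WT. All 9 were called lower in the library labelled Smad3-/-, none of them at 0, where 24.2% of all genes were higher and 25.2% lower. In that library 7 of 9 fibroblast markers were lower than WT and 1, Vim, was higher, with a sum of 16847 CPM against 26727 in WT. In the double heterozygote 5 fibroblast markers were higher and 1 lower, where 21.6% of all genes were higher and 19.1% lower. Their sum there was 47378 CPM.

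Genes of dividing cells summed to 1789 CPM in the library labelled Smad3-/-, 507 in the double heterozygote and 1271 in WT. Of 8, 7 were higher and 1 lower in the library labelled Smad3-/-, where 24.2% of all genes were higher and 25.2% lower. In the double heterozygote 3 were lower, where 19.1% of all genes were. Schwann cell and neural crest markers summed to between 10.7 and 52.5 CPM over the 6 libraries, and epithelial markers to between 3.12 and 37.6 CPM. Adipocyte markers summed to 38.6 CPM in the library labelled Smad3-/- and 260.0 in WT, and the difference lay mainly in Lpl, at 10.9 CPM there and 242 in WT. Fabp4 was also lower there, at 4.22 CPM against 10.4 in WT. Pparg, the adipocyte nuclear receptor, was higher, at 13.8 CPM in the library labelled Smad3-/- and 5.91 in that labelled Smad3+/-, against 1.24 in WT. Adipoq, Plin1, Cidec and Cfd, which define the mature cell, were at 0 or at most 0.299 CPM in every library. Hepatocyte markers summed to at most 9.15 CPM. The share of reads on genes and the share of ambiguous reads set apart the 2 libraries that hold nearly all calls, but the marker lists did not all do so. Macrophage markers in the double heterozygote, at 1561 CPM in sum, lay between the library labelled Sptbn1-/- (1402) and WT (2151). The sum hides changes both ways, since 1 of the 9 was higher and 3 lower than in WT. For all genes the shares were 21.6% and 19.1%. In the library labelled Sptbn1+/- 3 of the 9 were lower than in WT, and in Sptbn1-/- 2, where 1.20% and 0.412% of all genes were lower. Schwann cell and neural crest markers were also low in the library labelled Smad3+/-, at 21.7 CPM against 52.5 in WT. The part of all these differences in the results on sterol and fatty acid genes was not tested.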

How the data were processed

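Whole-transcriptome RNA of 6 libraries was counted by the authors, and the deposited values are raw counts of reads per gene, 1 table per library, with 5 summary lines that name no gene and were left out of totals. Build mm9 and the tools TopHat2 2.0.10, HTSeq, Trimmomatic, FastQC and DESeq2 are listed, per the submitters' processing notes; their roles, the strand setting and the annotation are not given in the sources used here. Reads aligned to several places made up 32.5% to 47.1% of the records and reads in no gene 11.9% to 32.6%. No column of any other sample was present.

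From the counts, CPM were scaled with edgeR 4.0.16 (TMM) in R 4.3.3, and a gene was kept where any library had 1 CPM or more. The ratio of 2 libraries was given an exact Clopper-Pearson 95% interval, conditional on the summed counts (scipy 1.17.1), and a level an exact Poisson one; log2 ratios used a prior count of 0.5. This makes 10 comparisons, 5 of them against WT. The interval rule was tried on simulated counts with counting error only, which says nothing about spread between replicates or about differences in make-up. Alternatives were a 2-fold threshold, scaling by total counts or by DESeq2 1.42.0 size factors, a 5 CPM minimum or none, and intervals widened by edgeR's common dispersion of 4 or of 6 libraries. Levels in all 6 libraries are given for members called against WT in 2 or more mutants, for the 3 with the largest fold in each mutant and for the 4 regulators; Dhcr7 and, of other lists, Apoe were added after their values were seen. The members, lists and rules were chosen with earlier results of these data known. A further 4 genes of sterol handling, outside the list of 9, are not reported here.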

Additional observations from a re-analysis of the deposited data

Results flagged for a closer look

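Nsdhl gave opposite calls for the same change of label in 2 backgrounds. It had 29.9 CPM in the double heterozygote and 60.7 CPM in the library labelled Sptbn1+/-, a ratio of 0.493 (95% interval 0.439 to 0.555), and 110.2 CPM in the library labelled Smad3+/- and 57.6 CPM in WT, a ratio of 1.91 (1.74 to 2.11). Each group is 1 library, so the difference between these ratios was not tested. Nsdhl is X-linked, and Xist had 2747 CPM in the library labelled Smad3+/-, against 0.0637 CPM in the double heterozygote, 2.65 CPM in Sptbn1+/- and 16.3 CPM in WT. Smad3 itself had 203 CPM in the double heterozygote, 79.5 CPM in the library labelled Smad3+/- and 53.3 CPM in WT, against the labels.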

How the results depend on the processing

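No called direction was reversed, but the alternatives could hardly reverse one. The 2-fold threshold, the filters and the widened intervals leave each ratio unchanged. Scaling by total counts or by DESeq2 size factors moved the median log2 ratio of all genes by at most 0.10, while a call lies beyond 1.5-fold. The median log2 ratio of the members lay near 0 and changed sign in 2 comparisons: for the double heterozygote against WT it was -0.06 with DESeq2 size factors and -0.02 with no filter, against 0.03, and against Sptbn1+/- it was -0.06 and -0.0043, against 0.03. DESeq2 size factors gave 5 higher members in the library labelled Smad3-/- against Smad3+/-, where edgeR's scaling gave 9. Over the 14810 genes these settings gave 3081 and 3352 higher. Against WT, DESeq2 size factors gave 2 lower members, where edgeR's scaling gave 1, and 3902 and 3730 of all genes were lower. For the library labelled Smad3-/- against WT, the median log2 ratio of all genes was -0.01 with DESeq2 size factors and 0.14 with total counts, against 0.05. A threshold of 2-fold left 0 of 30 members higher for Smad3+/- against WT, where 98 of the 14810 genes were higher. For Smad3-/- against WT it left 8 members higher and 0 lower, where 2088 genes were higher and 2764 lower. For the double heterozygote against WT it left 1 and 3, where 1742 and 1731 genes were. For Smad3-/- against Smad3+/- it left 2 and 1, where 1810 and 2392 genes were. For the double heterozygote against Sptbn1+/- it left 1 and 4, where 1728 and 1670 genes were. For the double heterozygote against Smad3+/- it left 0 and 8, where 1944 and 1669 genes were. Intervals widened by the common dispersion of 4 libraries left 0 members higher for Smad3+/- against WT, where 95 genes were higher. For Smad3-/- against WT they left 7 members higher and 0 lower, where 1738 genes were higher and 2653 lower. For the double heterozygote against WT they left 0 and 1, where 1509 and 1555 genes were. For Smad3-/- against Smad3+/- they left 2 and 1, where 1527 and 2270 genes were. For the double heterozygote against Sptbn1+/- they left 1 and 2, where 1594 and 1570 genes were. For the double heterozygote against Smad3+/- they left 0 and 5, where 1739 and 1479 genes were. For Smad3-/- against the double heterozygote they left 9 and 0, where 1179 and 2221 genes were. The dispersion of all 6 libraries left 0 members in every comparison, since it holds the differences between genotypes as spread. With it 275 genes were higher and 1284 lower for Smad3-/- against WT, and 246 and 604 for the double heterozygote against WT. Of 29 called ratios to WT, 17 were not called at 2-fold, 21 with the wider intervals of 4 libraries, 29 with those of 6, and 1, Acaca in the library labelled Smad3-/-, with DESeq2 size factors. Low counts limit Idi1, Tm7sf2 and Acss2, whose WT levels rest on 63, 44 and 90 counts. No paired analysis was possible because each genotype has 1 library and the labels carry no replicate numbers.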
